A study of Mus musculus with 30 samples.

Results

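The comparison described here asks how the opening and closing of chromatin on the way to the effector state differs between 2 lineages of CD4+ T cells. For each ATAC-seq peak it takes the change from central to effector regulatory T cells (eTreg minus cTreg) and subtracts the change from naive to effector conventional T cells (Teff minus Tnaive). No peak was selected: all 69316 peaks of a table of 26 libraries entered the test. It compared 8 libraries, 2 in each of 4 groups, out of 30 samples in the series, and took the spread of each peak over all 26. A positive difference of changes means that a peak gained more, or lost less, in the Treg step than in the conventional step, and a negative one means the reverse. Of the 69316 peaks, 821 (1.18% of those tested) were called higher and 1887 (2.72%) were called lower, so that 69.7% of the 2708 called peaks (3.91%) lay on the side where the conventional step was the more positive one.

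Regulatory T cells are CD4+ T cells defined by the transcription factor Foxp3 and known for holding immune responses in check. Central Treg and naive T cells carry lymph node homing receptors such as CCR7, while effector Treg and effector T cells have lost them after activation and enter tissues. ATAC-seq uses a transposase that cuts accessible DNA, so a peak marks an open site, often a promoter or an enhancer.

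The study's title names Foxp3 and BATF in effector Treg differentiation as its subject. All 4 groups were sorted from lymph nodes and spleen of C57BL6/J mice of the genotype Foxp3-IRES-hCD2, in which human CD2 marks Foxp3-expressing cells. Treg were gated as CD4+ and hCD2+ and conventional cells as CD4+ and hCD2-. Within them cTreg and Tnaive were high for CCR7 and low for CD44 and eTreg and Teff were low for CCR7, and a further surface marker was part of each gate. No label used here gives ages or says that both libraries of a group came from separate mice, so a p-value reflects library spread that could be purely technical. Since each library is a bulk sample, fewer cells with an open site and less cutting per cell cannot be told apart. CCR7 and CD44 were among the markers that set the gates, so peaks at Ccr7 and Cd44 are not independent of the sort. The other groups used below are WT Treg (CD4+hCD2+) and WT Tconv (CD4+hCD2-) of the same genotype, and BATFKO Treg (Foxp3-IRES-hCD2.Batf-/-). Foxp3R397W Treg (Foxp3R397W-IRES-hCD2/Foxp3-IRES-GFP) and their control (Foxp3WT-IRES-hCD2/Foxp3-IRES-GFP) were sorted as CD4+hCD2+GFP-. Treg lacking Foxp3 and BATF (DKO, Foxp3KO-IRES-hCD2.Batf-/-) had received mock, Foxp3, BATF or both retroviruses and were sorted as CD4+hCD2+ cells positive for CD45.2, GFP and Thy1.1 and negative for CD45.1. The Foxp3R397W, control and DKO groups are titled omniATAC-seq, and the other groups named here ATAC-seq.

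The names of the libraries are in conflict between the deposited tables, and every result rests on one reading of them. The 8 libraries named cTreg, eTreg, Tnaive and Teff here carry other names in a second table of 22 libraries. There the cTreg pair is named Foxp3R397W Treg, the eTreg pair WT Treg, the Tnaive pair also WT Treg with other numbers, and the Teff pair Foxp3KO Treg. At 4478 peaks with identical coordinates in both tables, 99.8% to 99.9% of their recovered read counts were equal. With the columns of the second table taken by its own names, 0 of 68597 peaks were called by limma in the difference of changes (465 had an unadjusted p under 0.05; edgeR was not run on that table). Under those names its cTreg, eTreg, Tnaive and Teff columns hold none of the 8 libraries used here. The levels of known markers go with the names used here. The Foxp3 peak at chrX:7583922-7584322 scored 435 and 370.3 in cTreg, 381 and 363 in eTreg, 1.28 and 9.07 in Tnaive and 7.84 and 7.83 in Teff. The summed score of 20 peaks at Ccr7 was 1782 to 2077 in cTreg and 2569 to 2770 in Tnaive, above 700 to 706 in eTreg and 782 to 971 in Teff. Scores are the authors' normalized peak scores, and changes are log2 differences of score + 1. Each library held 7307713 to 10609210 reads in peaks. The median standard error (SE) of the difference of changes was 0.48. The smallest difference that was called was 0.77 in size.

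Few of the called peaks lay at promoters, and these show the 2 directions most compactly. A window of 300 bases around a RefSeq start was overlapped by 4.38% of the peaks called higher (36 peaks) and 2.17% of those called lower (41 peaks), against 12.2% of all peaks. The 250 bases before the start are shown for 3 genes whose promoter peak was called higher and 4 whose promoter peak was called lower, all chosen after their values were seen. They are printed 5′ to 3′ on the gene's strand from the RefSeq promoter table (GRCm38.p6), at chr2:17731135-17731384 (minus strand) for Nebl, chr16:58718873-58719122 (minus) for Gpr15, chr3:101029554-101029803 (minus) for Cd101, chr7:43436888-43437137 (plus) for Nkg7, chr6:67376189-67376438 (minus) for Il12rb2, chr10:118440796-118441045 (plus) for Ifng and chr1:164935523-164935772 (minus) for Xcl1. Capitals mark every match to a set of 16 short motifs on either strand.
Nebl: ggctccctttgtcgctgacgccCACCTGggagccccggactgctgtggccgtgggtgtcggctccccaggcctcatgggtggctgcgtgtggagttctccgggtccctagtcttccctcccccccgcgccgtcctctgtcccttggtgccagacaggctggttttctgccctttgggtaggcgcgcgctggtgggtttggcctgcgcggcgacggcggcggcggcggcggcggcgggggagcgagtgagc
Gpr15: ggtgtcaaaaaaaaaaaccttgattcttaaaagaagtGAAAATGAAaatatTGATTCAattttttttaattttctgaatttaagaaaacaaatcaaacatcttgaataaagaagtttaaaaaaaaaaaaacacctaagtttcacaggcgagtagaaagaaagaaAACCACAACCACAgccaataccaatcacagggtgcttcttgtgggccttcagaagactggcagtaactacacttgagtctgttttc
Cd101: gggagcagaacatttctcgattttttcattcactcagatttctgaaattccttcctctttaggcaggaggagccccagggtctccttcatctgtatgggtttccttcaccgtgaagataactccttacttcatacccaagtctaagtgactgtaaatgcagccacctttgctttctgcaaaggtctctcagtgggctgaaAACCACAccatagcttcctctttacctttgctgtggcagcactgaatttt
Nkg7: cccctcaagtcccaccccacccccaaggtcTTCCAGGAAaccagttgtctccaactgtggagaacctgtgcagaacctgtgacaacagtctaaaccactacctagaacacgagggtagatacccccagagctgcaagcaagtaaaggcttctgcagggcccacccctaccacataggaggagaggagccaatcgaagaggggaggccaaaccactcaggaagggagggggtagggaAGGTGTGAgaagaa
Il12rb2: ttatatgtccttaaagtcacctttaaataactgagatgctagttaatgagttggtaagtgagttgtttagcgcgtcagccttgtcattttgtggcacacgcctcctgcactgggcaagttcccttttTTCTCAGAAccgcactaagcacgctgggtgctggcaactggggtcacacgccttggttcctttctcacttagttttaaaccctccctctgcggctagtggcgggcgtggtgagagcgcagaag
Ifng: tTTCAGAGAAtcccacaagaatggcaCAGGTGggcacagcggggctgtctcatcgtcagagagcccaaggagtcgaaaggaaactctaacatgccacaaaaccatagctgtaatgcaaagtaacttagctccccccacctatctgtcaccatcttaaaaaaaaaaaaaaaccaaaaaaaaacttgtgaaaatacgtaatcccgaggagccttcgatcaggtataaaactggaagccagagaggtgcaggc
Xcl1: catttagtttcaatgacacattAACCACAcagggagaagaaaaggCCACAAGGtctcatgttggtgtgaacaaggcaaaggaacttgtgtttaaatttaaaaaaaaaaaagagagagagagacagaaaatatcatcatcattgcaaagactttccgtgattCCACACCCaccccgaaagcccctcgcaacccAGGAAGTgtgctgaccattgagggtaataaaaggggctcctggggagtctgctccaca

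The promoter of Nebl, an actin-binding protein, was least open in cTreg. It scored 51.5 and 72.7 in cTreg, 330.2 and 323 in eTreg, 271 and 241 in Tnaive and 285 and 282 in Teff, a difference of changes of 2.25 (SE 0.27, limma adjusted p = 3.7e-06). The promoter of Gpr15, a homing receptor for the colon, scored 22.2 and 32 in cTreg, 55.4 and 72.6 in eTreg, 130.3 and 113 in Tnaive and 68.8 and 92 in Teff (1.82, SE 0.48, limma adjusted p = 0.026), and this call was lost in 5 of 8 fits that each left out 1 library and with quantile normalisation. In both genes the cTreg libraries held the lowest values and did not overlap with those of Tnaive. The promoter of Cd101, an inhibitory receptor of T cells, instead closed in both steps but less in the Treg step, with 220.4 and 201 in cTreg, 88.6 and 81.9 in eTreg, 414 and 307 in Tnaive and 60.1 and 60.7 in Teff (1.25, SE 0.29, limma adjusted p = 0.0096; lost in 2 of 8).

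At 3 of the 4 promoters called lower, Teff stood above every other group. The promoter of Nkg7, a granule protein of cytotoxic cells, scored 11.6 and 11 in cTreg, 25.5 and 23.4 in eTreg, 5.11 and 5.18 in Tnaive and 182 and 222 in Teff (-3.99, SE 0.54, limma adjusted p = 2.1e-05). That of Ifng, the type 1 cytokine, scored 14.2 and 13.2 in cTreg, 57.6 and 60.9 in eTreg, 19.2 and 9.07 in Tnaive and 367 and 386 in Teff (-2.69, SE 0.64, limma adjusted p = 0.012; lost in 2 of 8 leave-one-out fits). At Xcl1, a chemokine of activated lymphocytes, the Teff libraries scored 132 and 176 and all others 15.4 or less (-4.90, SE 0.85, limma adjusted p = 6.5e-04). Il12rb2, a chain of the IL-12 receptor, showed the other route to a negative value, a loss in the Treg step. Its promoter scored 132 and 163 in cTreg but 26.6 and 30.4 in eTreg, against 224 and 206 in Tnaive and 171 and 218 in Teff (-2.17, SE 0.31, limma adjusted p = 5.2e-05).

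The letters AGGTGTGA, a T-box motif, were in 4 of 41 promoter windows with a peak called lower (9.76%), in 0 of 36 with a peak called higher, and in 0.676% of all 8426 promoter windows with a peak, taking 1 window per peak. In Nkg7 it stood at -14 to -7 from the start. The RUNX letters TGTGGTT were in 16.7% of windows called higher, 12.2% of those called lower and 3.16% of all, and stood side by side at -86 to -80 and -80 to -74 in Gpr15. TTCNNNGAA, the STAT letters, was in 2.78%, 14.6% and 5.65%, with matches in Nkg7, Il12rb2 and Ifng. In the same order, the CTCF letters CCACNAGG were in 2.78%, 17.1% and 4.93%, with a match in Xcl1. The IRF letters GAAANNGAA were in 13.9%, 2.44% and 5.86%, with a match in Gpr15. The other motifs of the set were counted in the same way, and their shares are not listed here. Matches were counted on both strands and can overlap. A match describes these letters and is not a measured binding site, and with 36 and 41 windows a share rests on few promoters.

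**Figure D1:**
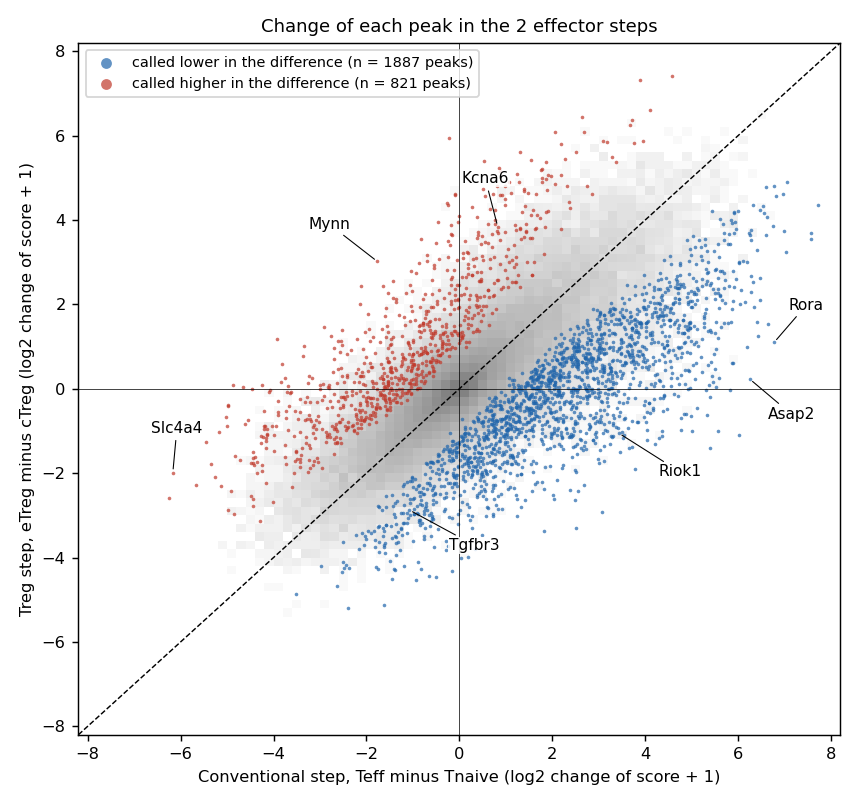
Log2 change of each peak in the Treg step (vertical axis) against the conventional step (horizontal axis), in log2 units of score + 1. Grey shading shows the density of all 69316 peaks on a log scale, red points the 821 peaks called higher and blue points the 1887 called lower in the difference, and the dashed line marks equal changes. Blue points spread mostly to the right, where the conventional step was positive.

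Most peaks called lower were sites that opened in the conventional step. By the calls of each step on its own, 775 of the 1887 opened only in the conventional step, and 489 opened in both steps but more in the conventional one. A further 350 closed only in the Treg step, 153 closed in the Treg step while opening in the conventional step, 119 closed in both but more in the Treg step, and 1 was called in neither. Of all peaks, 20.7% were called higher and 19.6% lower in the conventional step, and 19.7% higher and 17.4% lower in the Treg step. These calls come from the same libraries as the difference and sort the peaks rather than test them. The median peak that opened only in the conventional step scored 32.3 in cTreg, 31.3 in eTreg, 9.62 in Tnaive and 71.6 in Teff.

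The peaks called higher fell into the mirrored classes in smaller numbers and other proportions. Of them, 57.9% were called lower in the conventional step, while 75.1% of the peaks called lower were called higher in it. Of 821 peaks, 314 closed only in the conventional step, 257 opened only in the Treg step, 116 closed in both but less in the Treg step and 88 opened in both but more in the Treg step. Only 45 opened in the Treg step and closed in the conventional one, and 1 was called in neither. The median peak that opened only in the Treg step scored 12.7 in cTreg, 74.5 in eTreg, 33.4 in Tnaive and 27.9 in Teff. The median difference of changes was 2.04 among peaks called higher and -2.22 among those called lower, and 0.04 over all peaks.

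Set against the gap between the lineages, most called peaks were of 2 kinds, those with a gap that was smaller or no longer called after the step and those with a gap that was called only after it. The gap before the step is cTreg minus Tnaive, called higher at 8.8% and lower at 7.82% of all peaks, and the gap after it is eTreg minus Teff, called higher at 8.4% and lower at 9.07%. Of the 1887 peaks called lower, 1032 were already more open in cTreg than in Tnaive. At 641 of these the gap after the step was not called, at 254 eTreg stayed above Teff, and at 137 eTreg had come to lie below Teff. Another 745 had no called gap before the step and were lower in eTreg than in Teff after it. Among the 821 peaks called higher, 451 were less open in cTreg than in Tnaive, and at 394 of those no gap was called after the step. A further 329 had no called gap at first and were higher in eTreg than in Teff afterwards. At 75 peaks called lower and 13 called higher, a gap called before the step was wider after it. The difference of changes equals the change of this gap, so these counts describe the called peaks and are no further evidence for them.

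**Figure D2:**
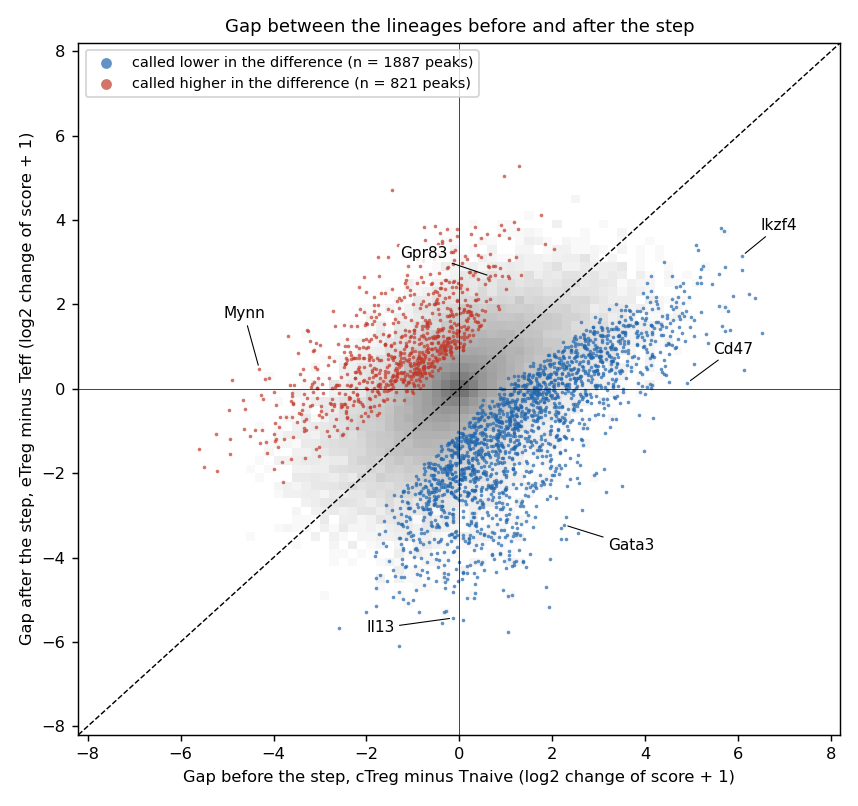
Gap between the lineages after the step (eTreg minus Teff, vertical axis) against the gap before it (cTreg minus Tnaive, horizontal axis), in log2 units of score + 1, for all 69316 peaks (grey density) and the peaks called higher (red, 821) or lower (blue, 1887). Many blue points lie to the right of 0 and close to the horizontal line, where cTreg exceeded Tnaive and no gap was left after the step, and others fall straight below 0.

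The peaks with the largest negative differences fell into 2 kinds. In the first, the site was open in both Treg states and in Teff and was closed in Tnaive. A peak inside Rora, a nuclear receptor of type 2 and tissue-resident lymphocytes, at chr9:69300260-69300660 scored 70.2 and 67.2 in cTreg, 169.5 and 129.9 in eTreg, 0 and 0 in Tnaive and 112 and 105 in Teff. Its difference of changes was -5.67 (SE 0.42, limma adjusted p = 6.6e-10), and with both Tnaive libraries at 0 Teff was at least 28.1-fold higher than a floor of 3 reads per Tnaive library. Near Cd47, the "don't eat me" ligand, the peak at chr16:49935919-49936319 scored 371 and 366 in cTreg, 569 and 584 in eTreg, 14 and 9.07 in Tnaive and 538 and 508 in Teff (-4.77, SE 0.32, limma adjusted p = 1.6e-10). Only the Tnaive libraries were low at both sites.

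The same shape was found at further peaks of this kind. At Prr5l, a regulator of the mTORC2 kinase complex chosen after its values were seen, the peak at chr2:101796521-101796921 scored 196 and 208 in cTreg, 195 and 213 in eTreg, 8.94 and 13 in Tnaive and 198 and 182 in Teff (-4.01, SE 0.27, limma adjusted p = 1.6e-10). The peak nearest Tnc scored 0 and 0 in Tnaive against 72.4 to 238 elsewhere (-5.19), and Teff was at least 22.4-fold above the floor. The peak nearest Vangl2 also scored 0 and 0 in Tnaive against 49.8 to 248 elsewhere (-4.35, at least 22.6-fold). The peak inside Riok1 was low in Tnaive as well, at 8.94 and 13, and fell in the Treg step from 176 and 164 to 78.7 and 84.3 (-4.48, SE 0.39, limma adjusted p = 1.5e-08). A peak 29724 bp from the start of Il1rl1, which encodes the IL-33 receptor ST2, had Tnaive libraries of 12.8 and 0 against 50.3 to 90.4 elsewhere, and its call (-4.36, SE 1.16) lay just under the threshold and was lost in 6 of 8 leave-one-out fits, with a pseudocount of 0.5, with quantile normalisation and with the 4 groups or the groups titled ATAC-seq fitted alone. Where both libraries of a group are at 0, the fitted difference depends on the pseudocount and the fold over the floor is the firmer value.

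In the second kind, Teff stood alone. The peak inside Asap2, a GTPase-activating protein of vesicle transport, at chr12:21226291-21226691 scored 3.55 and 7.71 in cTreg, 11.1 and 3.51 in eTreg, 2.55 and 1.3 in Tnaive and 195 and 239.7 in Teff (-6.02, SE 0.93, limma adjusted p = 1.5e-04). Slamf7, a receptor of cytotoxic and activated lymphocytes, had a peak at chr1:171629061-171629461 with 169 and 216 in Teff and 2.55 to 13 in the other 6 libraries (-4.43, SE 0.68, limma adjusted p = 1.2e-04). The peaks nearest Slc35f3 (-5.28), Med4 (-5.11), Samd3 (-4.68) and Arl8b (-4.40) were of the same kind, with Teff scores from 151 to 276 and all other libraries at 17.7 or less. Both libraries of Teff lay above the other 6 libraries at each of these peaks.

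**Figure D3:**
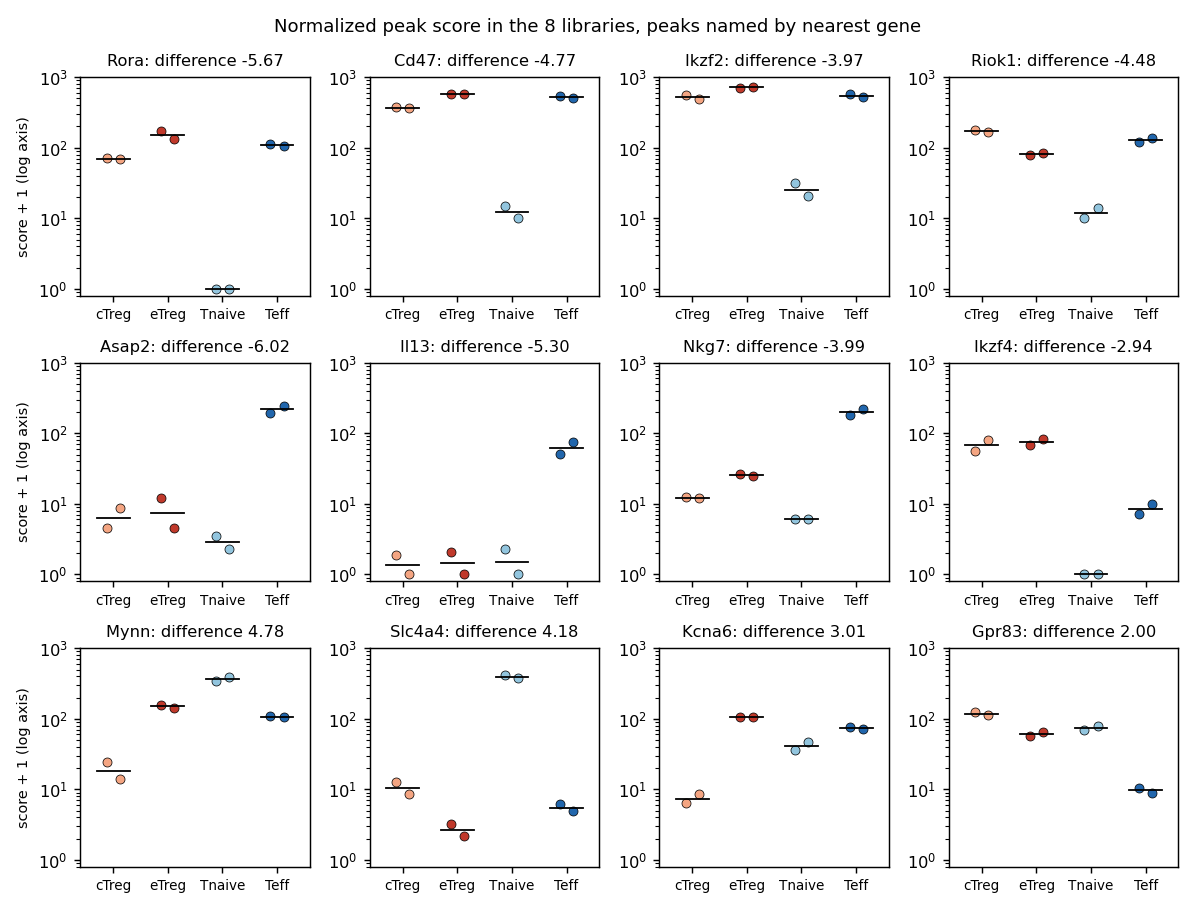
Normalized peak score + 1 (log axis) in the 8 libraries for 12 peaks, named by the nearest gene, with the difference of changes above each panel. Points are single libraries and horizontal bars the geometric mean of the 2 libraries of a group. At Rora, Cd47 and Ikzf2 the Tnaive libraries are low, at Asap2, Il13 and Nkg7 the Teff libraries are high, and at Mynn and Kcna6 the cTreg libraries are low.

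Among the peaks with the largest positive differences, low cTreg libraries and high Tnaive libraries were the common features. The peak inside Mynn, a zinc finger protein, at chr3:30610938-30611338 scored 23.1 and 13.2 in cTreg, 156 and 142 in eTreg, 337 and 396 in Tnaive and 108 and 106 in Teff. Its difference was 4.78 (SE 0.53, limma adjusted p = 8.9e-07), with a gain in the Treg step and a loss in the conventional step that both passed the test. The peak nearest Kcna6, a potassium channel, at chr6:126769281-126769681 scored 5.33 and 7.71 in cTreg, 105 and 105 in eTreg, 35.8 and 46.6 in Tnaive and 74.9 and 71.4 in Teff (3.01, SE 0.45, limma adjusted p = 9.6e-05). It opened in both steps, but from a level in cTreg that was below every Tnaive library.

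Sites open in Tnaive alone made up much of the remainder. The peak inside Slc4a4, a bicarbonate cotransporter, at chr5:89122911-89123311 scored 11.6 and 7.71 in cTreg, 2.22 and 1.17 in eTreg, 414 and 379.6 in Tnaive and 5.23 and 3.91 in Teff (4.18, SE 0.84, limma adjusted p = 0.003). The site closed in both steps, and the gap between eTreg and Teff was not called. The difference at this peak was not called by edgeR. The peaks at Unc80 (3.73), Mad2l1 (3.08), Zfp408 (3.02), Dmbt1 (2.89) and Cnn3 (3.17) were also highest in Tnaive, with Tnaive scores of 119 to 255 and no other library above 55.1. Those at Zfp408 and Cnn3 closed in both steps past the test, while the Treg step was not called at Unc80 (1.13), Mad2l1 (-0.87) and Dmbt1 (-1.11). Those nearest Stxbp4 (3.40) and Foxq1 (3.32), a forkhead factor, opened in the Treg step and closed in the conventional one, as the peak at Dnah11 (3.82) did on its values, although its conventional step of -1.54 did not pass the test. The calls at Mad2l1 were lost in 3, and those at Zfp408, Dmbt1 and Dnah11 in 1, of 8 leave-one-out fits. Those at Zfp408 and Dmbt1 were also lost with edgeR and that at Dnah11 with a pseudocount of 0.5.

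Several genes held many called peaks, where 2.72% of all peaks were called lower and 1.18% higher. Helios, encoded by Ikzf2, is a transcription factor that stabilises Treg, and 11 of the 41 peaks assigned to it were called lower. Of the 41, 28 were called higher in cTreg than in Tnaive, against 8.8% of all peaks. Prr5l had 11 of 14 peaks called lower, Rgs1, a brake on chemokine receptor signalling, 10 of 24, Cd47 9 of 24, Gem, a small GTPase, 8 of 9, Ifng 8 of 24 and Plxnc1, a semaphorin receptor, 8 of 24. Zbtb16, which encodes PLZF, a factor of innate-like T cells, had 7 of 15 called lower. Of its 15 peaks, 13 were lower in eTreg than in Teff, against 9.07% of all peaks. Slc4a4 stood on the other side with 8 of 20 peaks called higher, followed by Foxq1 with 5 of 6 and Chd7, a chromatin remodeller, with 5 of 39. Nebl was mixed, with 4 peaks higher and 3 lower of 18. These genes were picked by their number of called peaks after the values were seen, and peaks of 1 locus are not independent.

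The Treg identity list (20 genes, 270 peaks) had 38 peaks called lower (14.1%) and 3 called higher (1.11%), at a median difference of -0.24. Over all peaks, the background for this and the lists below, 2.72% were called lower and 1.18% higher. Most of the 38 lay at few loci, with 11 at Ikzf2, 10 at Rgs1 and 5 at Il2rb, and peaks of 1 locus are not independent. This list was meant to hold genes of Treg in either state, and a place on it does not make a gene specific to Treg. At Ikzf2 the peak with the smallest adjusted p, chr1:69544222-69544622, scored 559 and 487 in cTreg, 702 and 727 in eTreg, 30.7 and 19.4 in Tnaive and 570.4 and 518 in Teff (-3.97, SE 0.32, limma adjusted p = 4.3e-09). It was open in every group but Tnaive, and the change in the Treg step of 0.45 did not pass the test. Ctla4, the inhibitory receptor that takes up costimulatory ligands, had 2 of 22 peaks called lower. The one at chr1:60920476-60920876 scored 148 and 156 in cTreg, 178 and 145 in eTreg, 52.4 and 72.6 in Tnaive and 276 and 309 in Teff (-2.14, SE 0.28, limma adjusted p = 1.2e-05), so that it was most open in Teff.

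The leading peaks at Il2rb, Ikzf4 and Nrp1 were all called lower, in different shapes. Il2rb, the IL-2 receptor beta chain, had 5 of 8 peaks called lower. The peak at chr15:78502591-78502991 scored 39.1 and 35.3 in cTreg, 22.2 and 14 in eTreg, 5.11 and 7.77 in Tnaive and 74 and 89 in Teff (-4.52, SE 0.40, limma adjusted p = 2.9e-08), falling in the Treg step and rising in the conventional step. Ikzf4, which encodes Eos, a corepressor partner of Foxp3, had a peak with 56 and 80.5 in cTreg, 66.5 and 80.8 in eTreg, 0 and 0 in Tnaive and 6.1 and 8.8 in Teff. It was called lower (-2.94, SE 0.47, limma adjusted p = 2.3e-04), yet eTreg stayed far above Teff, where Teff was at least 1.93-fold above the floor of Tnaive, and the call was lost with a pseudocount of 5. Nrp1, a surface marker of thymic Treg, had 1 of 38 peaks called lower, with 71.1 and 112 in cTreg, 497 and 434 in eTreg, 10.2 and 6.48 in Tnaive and 512 and 364 in Teff (-3.20, SE 0.37, limma adjusted p = 1.8e-06).

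Other members of the list went the opposite way or were not called. Gpr83, a receptor of Treg with neuropeptide ligands, had a peak at chr9:14858209-14858609 with 124 and 112 in cTreg, 56.5 and 64.4 in eTreg, 69 and 79 in Tnaive and 9.58 and 7.83 in Teff. It was called higher (2.0, SE 0.44, limma adjusted p = 0.0059), since it closed less in the Treg step. Il2ra, the IL-2 receptor alpha chain, had 1 peak called higher and 1 lower of 18. The former scored 23.1 and 13.2 in cTreg, 21.1 and 12.9 in eTreg, 3.83 and 5.18 in Tnaive and 0 and 0 in Teff (2.37, SE 0.65, limma adjusted p = 0.033). Teff was at least 1.62-fold lower than Tnaive against the floor, and the call was lost in 5 of 8 leave-one-out fits, with a pseudocount of 5, with the 4 groups or the groups titled ATAC-seq fitted alone and with edgeR. At Foxp3, 0 of 4 peaks were called by limma or edgeR, and 0 had an unadjusted p under 0.05. The peak named above had a difference of -0.99 (SE 0.71, limma adjusted p = 0.58) on a Tnaive pair of 1.28 and 9.07, and was called in 2 of 8 leave-one-out fits; without Tnaive replicate 1 it was 0.08. Lrrc32, the TGF-beta docking receptor GARP, had 0 of 10 peaks called by limma or edgeR (3 lower at an unadjusted p under 0.05), and at its peak at chr7:98491686-98492086 Teff scored 11.3 and 14.7 against 1.28 and 6.48 in Tnaive and 206 to 261 in both Treg groups (-1.47, SE 0.44, limma adjusted p = 0.059; called in 1 of 8).

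**Figure D4:**
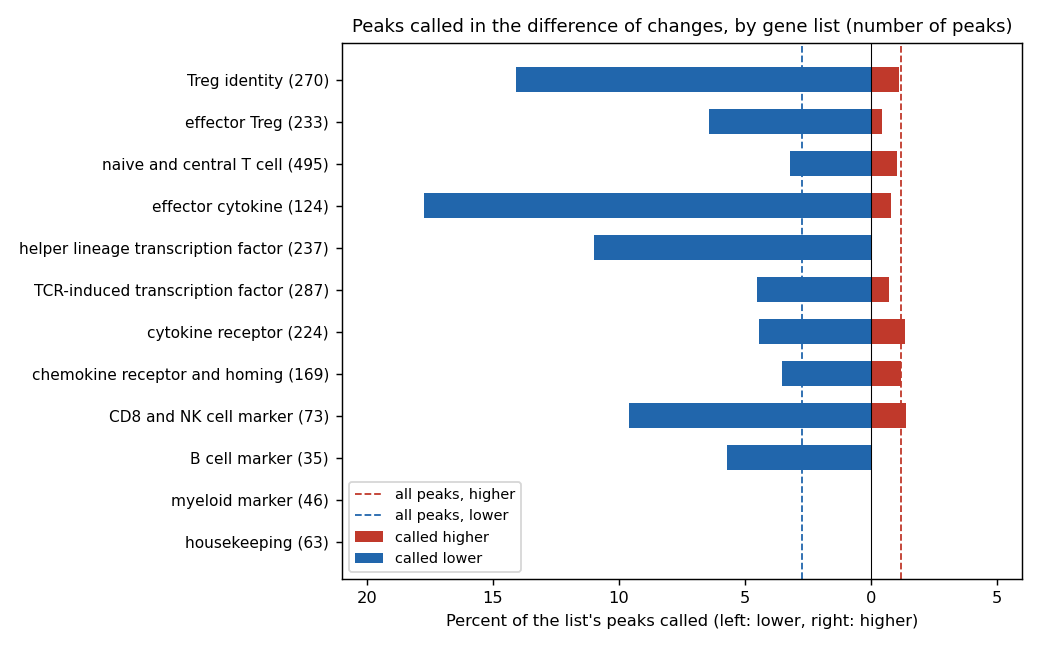
Percent of the peaks of each gene list called lower (blue, to the left) or higher (red, to the right) in the difference of changes, with the number of peaks of each list in brackets. Dashed lines give the same percentages over all peaks, 2.72% and 1.18%. The bars to the left are longest for the effector cytokine (17.7%) and Treg identity (14.1%) lists.

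Effector cytokine genes (21 genes, 124 peaks) had 22 peaks called lower (17.7%) and 1 higher (0.806%), with the most negative median of the 12 lists, -0.45. Of the 22, 8 lay at Ifng. Il13, a type 2 cytokine, had a peak at chr11:53626712-53627112 that was open in Teff alone, with 50.5 and 75.3 there and 0 to 1.28 in the other 6 libraries (-5.30, SE 0.68, limma adjusted p = 8.5e-06; not called by edgeR). At Ifng the peak inside the gene at chr10:118441923-118442323 scored 45.3 and 69.4 in cTreg, 137 and 112 in eTreg, 2.55 and 11.7 in Tnaive and 161 and 135 in Teff (-3.34, SE 0.54, limma adjusted p = 2.6e-04). Unlike at the promoter of the same gene, the gap between eTreg and Teff was not called at this site, and Tnaive was the low group. Ccl5, a chemokine of memory and cytotoxic T cells, had a peak with 46.2 and 48.9 in Teff and 7.76 or less elsewhere (-5.99, SE 1.0, limma adjusted p = 3.5e-04).

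Further peaks of the cytokine list covered growth factors and ligands of the tumour necrosis factor family. A peak near Csf2, which encodes GM-CSF, scored 15.1 and 14.3 in cTreg, 8.86 and 4.68 in eTreg, 0 and 5.18 in Tnaive and 20 and 15.7 in Teff (-3.98, SE 0.71, limma adjusted p = 7.7e-04). Inside Tnfsf8, the CD30 ligand, Tnaive was low at 6.39 and 3.89 and the other groups held 19.9 to 42.7 (-2.80, SE 0.54, limma adjusted p = 0.0018). Il2, the growth factor that Treg consume and do not make, had the 1 peak called higher, 26539 bp from its start. It scored 176 and 204 in cTreg, 194 and 215 in eTreg, 631 and 626 in Tnaive and 327 and 287 in Teff, so that Tnaive and Teff lay above both Treg groups (1.14, SE 0.29, limma adjusted p = 0.02; lost in 5 of 8 leave-one-out fits).

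Helper lineage transcription factors (18 genes, 237 peaks) had 26 peaks called lower (11.0%) and 0 higher by limma (0 by edgeR, 6 at an unadjusted p under 0.05), at a median of -0.26. Rora had 7 of 39 peaks called lower and Zbtb16, also of this list, 7 of 15, so these loci held much of the count. Gata3, the type 2 factor that is also active in Treg, had a peak at chr2:9848302-9848702 with 19.6 and 13.2 in cTreg, 6.65 and 7.02 in eTreg, 2.55 and 2.59 in Tnaive and 60.1 and 87.1 in Teff (-5.49, SE 0.66, limma adjusted p = 3.4e-06). Runx3, a factor of type 1 and cytotoxic cells, had a peak with 25.8 and 12.1 in cTreg, 4.43 and 8.19 in eTreg, 2.55 and 14.3 in Tnaive and 50.5 and 38.2 in Teff (-4.02, SE 0.65, limma adjusted p = 2.4e-04). At Stat4, which signals below the IL-12 receptor, 8.94 and 5.18 in Tnaive stood against 33.1 to 73.4 elsewhere (-2.87, SE 0.44, limma adjusted p = 1.4e-04). The promoter peak of Tbx21, which encodes T-bet, scored 32 and 35.3 in cTreg, 29.9 and 51.5 in eTreg, 20.4 and 27.2 in Tnaive and 71.4 and 65.5 in Teff (-1.28, SE 0.46, limma adjusted p = 0.13).

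In the effector Treg list (25 genes, 233 peaks) the median change was 0.94 in the Treg step and 0.96 in the conventional step, and 15 peaks were called lower (6.44%) and 1 higher (0.429%) in the difference. Klrg1, a receptor of terminal effector cells, had a peak with 6.22 and 4.41 in cTreg, 162 and 101 in eTreg, 0 and 0 in Tnaive and 209 and 211 in Teff (-3.36, SE 0.48, limma adjusted p = 5.2e-05). Both effector groups were open, and Teff was at least 54.5-fold above the floor of Tnaive, so the negative value rested on the low but non-zero cTreg level. At Icos, a costimulatory receptor, a peak scored 70.2 and 56.2 in cTreg, 53.2 and 51.5 in eTreg, 19.2 and 11.7 in Tnaive and 55.7 and 59.7 in Teff (-2.14, SE 0.47, limma adjusted p = 0.0068).

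The transcription factors and cytokine of that list had smaller differences with calls that depended on single libraries. At Batf, the AP-1 family factor of the study's title, 1 of 8 peaks was called, with 14.2 and 20.9 in cTreg, 56.5 and 55 in eTreg, 5.11 and 1.3 in Tnaive and 37.4 and 41.1 in Teff (-1.79, SE 0.46, limma adjusted p = 0.02; lost in 6 of 8 leave-one-out fits). Irf4, its binding partner, had 1 of 11 peaks called, with 48.9 and 36.4 in cTreg, 114 and 112 in eTreg, 6.39 and 5.18 in Tnaive and 43.5 and 49.9 in Teff (-1.41, SE 0.39, limma adjusted p = 0.032; lost in 6 of 8). Il10, the suppressive cytokine, had 1 of 13 peaks called, with 108 and 131 in cTreg, 646 and 636 in eTreg, 54.9 and 36.3 in Tnaive and 735 and 693 in Teff (-1.55, SE 0.36, limma adjusted p = 0.011; lost in 2 of 8). The calls at Batf and Irf4 were also lost with a pseudocount of 5, quantile normalisation, the 4 groups or the groups titled ATAC-seq fitted alone, and edgeR. All 3 sites opened in both steps, from a cTreg level above that of Tnaive. Pparg, the nuclear receptor of tissue Treg, had the 1 peak called higher. It scored 0 and 0 in cTreg, 32.1 and 25.7 in eTreg, 10.2 and 1.3 in Tnaive and 10.4 and 8.8 in Teff (3.83, SE 0.92, limma adjusted p = 0.013; lost in 3 of 8), with eTreg at least 9.69-fold above the floor of 3 reads per cTreg library.

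Naive and central T cell genes (20 genes, 495 peaks) were mostly called lower in the steps themselves, with medians of -0.71 in the Treg step and -0.78 in the conventional step and 249 and 265 peaks called lower. Their 16 peaks called lower (3.23%) and 5 called higher (1.01%) were close to the shares over all peaks. Foxp1, a forkhead factor that keeps T cells quiescent, had peaks in both directions within 1 gene body. The peak at chr6:99441132-99441532 scored 76.4 and 61.7 in cTreg, 14.4 and 18.7 in eTreg, 115 and 77.7 in Tnaive and 3.48 and 3.91 in Teff (2.35, SE 0.48, limma adjusted p = 0.0033). The peak at chr6:99388952-99389352 scored 367 and 304 in cTreg, 90.9 and 85.4 in eTreg, 430.4 and 393 in Tnaive and 326 and 307 in Teff (-1.53, SE 0.23, limma adjusted p = 8.4e-05). The first closed in both steps and further in the conventional one, and the second passed the test for closing in the Treg step only.

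Of the other genes of this list, S1pr1, the receptor for exit from lymph nodes, had 5 peaks called lower and 1 higher of 33. Its peak called higher scored 19.6 and 16.5 in cTreg, 5.54 and 5.85 in eTreg, 62.6 and 54.4 in Tnaive and 0.871 and 2.93 in Teff (2.95, SE 0.68, limma adjusted p = 0.0091; lost in 1 of 8 leave-one-out fits). Tcf7 and Lef1, the HMG factors of stem-like T cells, had 0 of 17 and 0 of 40 peaks called by limma or edgeR (1 and 4 at an unadjusted p under 0.05), and the smallest limma adjusted p was 0.19 and 0.11. At Ccr7 the smallest was 0.099 (called in 2 of 8), and 0 of 20 peaks were called by limma or edgeR (5 at an unadjusted p under 0.05).

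TCR-induced transcription factors (27 genes, 287 peaks) had 13 peaks called lower (4.53%) and 2 higher (0.697%). Bhlhe40, which supports cytokine production in helper cells, had 4 of 14 called lower. Its peak at chr6:108685933-108686333 scored 14.2 and 14.3 in cTreg, 3.32 and 12.9 in eTreg, 10.2 and 0 in Tnaive and 96.7 and 83.2 in Teff (-5.74, SE 0.94, limma adjusted p = 3.7e-04). Nfkb1, which encodes the NF-kB subunit p50, had 3 of 32 called lower, and its leading peak scored 189 and 177 in cTreg, 98.6 and 87.8 in eTreg, 134 and 82.9 in Tnaive and 212 and 210.3 in Teff (-1.97, SE 0.31, limma adjusted p = 1.5e-04). That site closed in the Treg step and opened in the conventional step, each past the test. Myc, the driver of T cell growth, had 2 of 12 peaks called higher. At the more significant of them only Tnaive was open, with 53.6 and 47.9 against 7.11 or less (4.41, SE 1.13, limma adjusted p = 0.021; lost in 5 of 8 leave-one-out fits and with edgeR).

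Cytokine receptors (25 genes, 224 peaks) had 10 peaks called lower (4.46%) and 3 higher (1.34%), against 2.72% and 1.18% of all peaks. Tgfbr3, the TGF-beta coreceptor betaglycan, held 5 of the 10, out of 27 peaks. The leading one, at chr5:107079867-107080267, scored 364 and 453 in cTreg, 56.5 and 52.7 in eTreg, 613 and 588 in Tnaive and 319 and 253 in Teff (-1.80, SE 0.25, limma adjusted p = 2.8e-05). It closed in both steps and further in Treg. Il4ra, the IL-4 receptor alpha chain, had 2 of 10 peaks called higher, and the leading one scored 124 and 97 in cTreg, 92 and 84.3 in eTreg, 80.5 and 82.9 in Tnaive and 27.9 and 34.2 in Teff (1.06, SE 0.30, limma adjusted p = 0.037; lost in 7 of 8, with quantile normalisation, with the 4 groups or the groups titled ATAC-seq fitted alone and with edgeR). Chemokine receptor and homing genes (20 genes, 169 peaks) had 6 lower (3.55%) and 2 higher (1.18%), close to the shares over all peaks. Among them, a peak near Cd44, a sort marker, scored 74.6 and 87.1 in cTreg, 736 and 689 in eTreg, 7.66 and 7.77 in Tnaive and 470.3 and 366 in Teff (-2.45, SE 0.31, limma adjusted p = 7.3e-06).

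Markers of other cells were examined because the Teff gate names no T cell receptor or NK marker. The CD8 and NK cell list (16 genes, each with a peak, 73 peaks) had 7 peaks called lower (9.59%) and 1 higher (1.37%). Its summed score was 7729.7 to 8287 in cTreg, 7453 to 7647 in eTreg, 11219.8 to 11325.5 in Tnaive and 9527 to 9663 in Teff. No gene of the list was at 0. The peaks of Nkg7 summed to 449 and 512 in Teff against 18.1 to 97.5 elsewhere, while the single peak of Ncr1, an NK receptor, held 8.82 to 30.3 and the 3 peaks of Cd8a 12.7 to 149 over the 8 libraries. At several receptor and cytotoxic genes of the list Tnaive held the highest sums. The peak of Klrd1, the CD94 chain, scored 282 and 419 in Tnaive against 10.5 to 56.6 elsewhere, and that of Klrc1, its NKG2A partner, 299 and 319 in Tnaive, 220.3 and 267 in Teff and 16 to 55.4 in both Treg groups. Klrk1, which encodes NKG2D, summed to 678 and 889 in Tnaive against 67.6 to 339 elsewhere, and Prf1, which encodes perforin, to 881 and 996 against 58.7 to 526. Gzmk, a granzyme, was instead high in both effector groups, with 437 to 480 in eTreg and 554 to 615 in Teff against 29.4 to 55.1 in cTreg and Tnaive. The 10 peaks of Klrb1c, the NK1.1 antigen, summed to 1330.3 to 1540.1 in cTreg, 1365 to 1481 in eTreg, 1807 to 2149 in Tnaive and 1405 to 1524 in Teff. At Zbtb16 the peak at chr9:48711799-48712199 scored 37.4 and 51.8 in Teff against 1.11 to 8 elsewhere (-5.05, SE 0.92, limma adjusted p = 0.001). At Fasl, a death ligand, a peak scored 76.6 and 99.8 in Teff and 6.39 and 15.5 in Tnaive, with 48 to 60.6 in both Treg groups (-3.17, SE 0.45, limma adjusted p = 4.1e-05). Inside Cd8b1, the CD8 beta chain, a peak called higher scored 267 and 274 in cTreg, 75.3 and 89 in eTreg, 346 and 293 in Tnaive and 40.9 and 30.3 in Teff (1.43, SE 0.35, limma adjusted p = 0.014; lost in 4 of 8). The part of other cells in these results was not tested.

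B cell markers (10 of 14 genes with a peak, 35 peaks) had 2 peaks called lower (5.71%, against 2.72% of all peaks). By limma 0 were called higher (0 by edgeR, 3 at an unadjusted p under 0.05). One lay inside Bank1, a B cell scaffold protein, and was open in Teff alone, with 70.5 and 101 against 7.71 or less (-5.85, SE 0.90, limma adjusted p = 1.2e-04). No peak was assigned to Ms4a1, Cd79a or Fcer2a, and the summed score of the list was 2317 to 2694 over the 8 libraries. Myeloid markers (12 of 15 genes with a peak, 46 peaks) and housekeeping genes (15 genes, 63 peaks) had 0 peaks called in either direction by limma. At an unadjusted p under 0.05, 6 myeloid peaks were higher and 0 lower, and 2 housekeeping peaks were higher and 3 lower, and edgeR called 0 in both lists. The myeloid sum was 2331 to 2463 in cTreg, 2863 to 3020.2 in eTreg, 3004 to 3031 in Tnaive and 2719 to 2823 in Teff.

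The counts of these lists depended on single libraries and on the test. Tested against a 1.5-fold change, Treg identity genes had 18 peaks called lower, helper factors 15, effector cytokines 7 and effector Treg genes 3. In the other alternatives on the same table the Treg identity count was 26 to 44. The effector cytokine count was 10 to 14 with edgeR and without either eTreg library, cTreg replicate 2, Tnaive replicate 2 or either Teff library, and the helper factor count was 16 without Teff replicate 2. The effector Treg count was 9 with edgeR or the groups titled ATAC-seq alone, 10 with quantile normalisation, and 6 to 8 without either eTreg library, cTreg replicate 2 or either Teff library. Over all these alternatives, counts of peaks called lower ranged from 2 to 29 for naive and central genes, 2 to 22 for TCR-induced factors, 4 to 22 for cytokine receptors, 4 to 11 for homing genes and 4 to 11 for CD8 and NK markers, and the sign of the median changed in at least 1 alternative for these lists other than the TCR-induced factors, and for the B cell and housekeeping lists. Of the peaks described, the test against a 1.5-fold change also ended the calls at Mad2l1, Dmbt1, Dnah11, Il1rl1, Gpr83, Il2ra, Batf, Irf4, Il10, Pparg, Icos, Il2, Myc, Il4ra and Cd8b1, at the promoters of Cd101, Gpr15 and Ifng and at the S1pr1 peak called higher.

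Called peaks lay further from gene starts than peaks in general. The median distance to the closest start of the assigned gene was 28529 bp for peaks called higher and 29534 bp for those called lower, against 17502 bp over all peaks. No protein-coding gene lay within 100 kb of 9.01% of the peaks called higher and 8.69% of those called lower, against 5.96% of all peaks. Shares inside gene bodies were near each other, at 51.9%, 51.9% and 50.3%. The 821 peaks were nearest to 611 genes and the 1887 to 1165, and 78 genes had peaks in both directions.

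The called peaks were then counted in contrasts of libraries other than the 8 compared in the difference. These contrasts came from the same fit and shared its estimate of the spread of each peak. Peaks with a small spread pass more easily in both, so the shares are not an independent check. Of the 1032 peaks called lower that were more open in cTreg than in Tnaive, 646 (62.6%) were also called higher in WT Treg than in WT Tconv and 10 lower, where 10.1% of all peaks were higher and 9.92% lower. The remaining 855 peaks called lower gave the reverse, with 5 called higher and 292 (34.2%) called lower. Of the 451 peaks called higher that were less open in cTreg than in Tnaive, 268 (59.4%) were lower in WT Treg than in WT Tconv, and of the other 370, 93 (25.1%) were higher and 12 lower. Among the 32525 peaks called in either step but not in the difference, 14.7% were higher and 14.8% lower in that contrast. The subsets were split by cTreg against Tnaive, itself a gap between Treg and conventional cells, so these directions were largely set by the split. The share among all peaks with a called gap before the step was not counted, so nothing here is particular to the difference.

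The called peaks were next counted in Treg lacking BATF and in Treg with the mutant Foxp3R397W. In BATFKO against WT Treg, 1.43% of all peaks were lower and 0.062% higher. Of the 32525 peaks called in a step but not in the difference, 2.60% were lower and 0.0769% higher. Of the 821 peaks called higher in the difference, 51 (6.21%) were lower in BATFKO Treg and 0 were higher by limma (32 at an unadjusted p under 0.05), while 53 of the 1887 called lower (2.81%, close to the 2.60%) were lower and 6 higher. Of those 53, 51 belonged to the 1032 sites that were already open in cTreg. In Foxp3R397W Treg, 1.85% of all peaks were lower and 0.776% higher than in the control, and 3.06% and 1.34% of the peaks called in a step but not in the difference. Lower peaks there made up 158 (15.3%) of the 1032 sites and 9 of the other 855, and 50 (13.5%) of the 370 peaks called higher that were not lower in cTreg than in Tnaive, against 10 of the other 451. Leaving out 1 library of that contrast brought the share of all peaks called lower in the difference that were lower in Foxp3R397W Treg from 8.85% to between 1.83% and 3.50%, and the share lower in BATFKO Treg among those called higher from 6.21% to between 1.79% and 4.63%. The second share was 10.5% with a pseudocount of 5 and 14.7% with quantile normalisation. The libraries named Foxp3R397W and control here carry the names eTreg and cTreg in the second table.

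Return of the factors to DKO Treg was read in the same way. With Foxp3 and BATF viruses together, 12.9% of all peaks were higher and 10.5% lower than with mock virus. The 32525 peaks called in a step but not in the difference had larger shares, 19.07% higher and 15.03% lower. Of the 370 peaks called higher in the difference and not lower in cTreg than in Tnaive, 155 (41.9%) were higher with both viruses and 34 (9.19%) lower. Of the 855 peaks called lower without an earlier cTreg excess, 46 (5.38%) were higher and 293 (34.3%) lower. The 1032 peaks with such an excess had 261 (25.3%) higher and 104 (10.1%) lower, and the 451 peaks with an earlier cTreg deficit had 76 (16.9%) higher and 93 (20.6%) lower. With BATF virus alone, 3.2% of all peaks were higher and 0.291% lower, and 49 (13.2%) of the 370 peaks were higher. With Foxp3 virus alone, 1.01% of all peaks were higher and 0.814% lower, and 18 (4.86%) of the 370 were higher. Among the peaks called in a step but not in the difference, 5.43% were higher with BATF virus and 1.34% with Foxp3 virus. These contrasts share the mock libraries with each other and none with the 4 sorted groups.

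**Figure D5:**
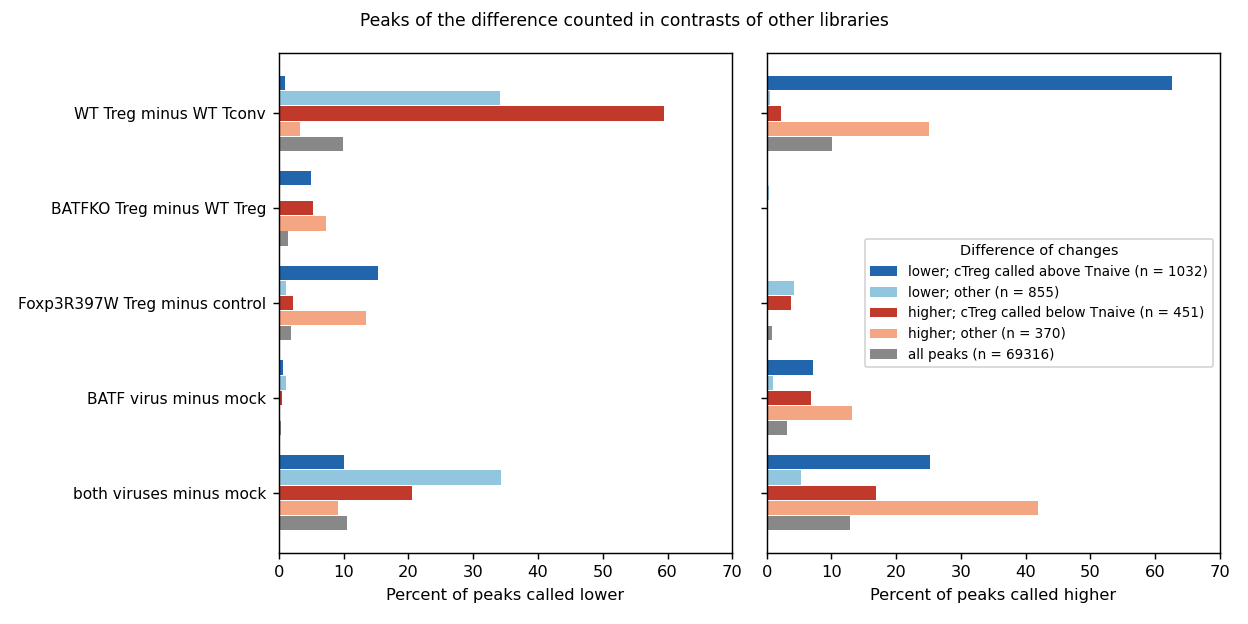
Percent of peaks called lower (left) and higher (right) in 5 contrasts of libraries other than the 8 compared in the difference of changes, from the same fit. Blue bars stand for peaks called lower, dark where cTreg exceeded Tnaive (1032) and light for the other 855, and red bars for peaks called higher, dark where cTreg was below Tnaive (451) and light for the other 370, with all 69316 peaks in grey. In WT Treg minus WT Tconv the dark blue bar reaches 62.6% on the right, and with both viruses the light red bar reaches 41.9% on the right.

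The number of calls depended on single libraries. Leaving out Teff replicate 2 left 414 peaks higher and 933 lower, leaving out cTreg replicate 2 left 500 and 1189, and without either eTreg library, Teff replicate 1 or Tnaive replicate 2 the count of higher peaks was 414 to 505. Tested against a change of 1.5-fold, 123 peaks were higher and 622 lower, and with a pseudocount of 5 in place of 1 the counts were 1862 and 2355, a share of 44.2% higher against 30.3%.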

How the data were processed

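ATAC-seq signal was taken as the deposited, normalized peak scores of a table of 26 libraries in 13 groups of 2; the authors' normalization method is not given in the sources used here. Without roles, the submitters' processing notes name build mm10, edgeR (3.36.0, 3.38.4), DiffBind (3.4.11, 3.0.15), MACS2 (2.2.7.1) and Bowtie2 (2.4.1). In each library 100% of scores were whole reads times 1 factor (within 0.02 reads). All 13 groups were fitted together with limma 3.58.1 (trend and robust options, R 4.3.3) on log2(score + 1), with 13 residual degrees of freedom and Benjamini-Hochberg adjustment over all 69316 peaks, and called at adjusted p under 0.05. The fit thus pooled the spread of groups titled ATAC-seq and groups titled omniATAC-seq. Given the conflict of names, the protocol of each library could not be settled. The code was tested on simulated data. Fold changes on this scale understate the change of low peaks. Each peak took the name of the closest RefSeq protein-coding gene (GRCm38.p6) up to 100 kb away, which 65186 peaks (94.0%) had; overlapping genes cannot be told apart by this. A promoter window ran from 250 bases before to 50 after a start. Floors of 3 reads cover counting error only.

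The comparison, gene lists and motifs were chosen with earlier results of these data known. Peaks were named as the 12 with the largest difference in each direction above the median score, the most significant of each list in each direction, and the leading peak at 12 fixed genes; 36 more were added after their values were seen, and 2 peaks picked by the rule are not reported here. Alternatives covered the pseudocount, a score minimum of 10, quantile normalisation, a replicate block, fewer groups, the second table, a 1.5-fold test, edgeR 4.0.16 on the recovered reads and each library left out. In the last case the remaining library of a group was assumed to vary like the other groups.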

Additional observations from a re-analysis of the deposited data

Results flagged for a closer look

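Opposite responses of the lineages were called at a small part of the peaks of the difference. A call in the difference alone does not mean that the steps went in opposite directions. By the limma test of the difference between the Treg and the conventional step, 821 peaks were called higher and 1887 lower. At 45 of the former the peak was called as opening in the Treg step and closing in the conventional step, as at Mynn and Foxq1. At 153 of the latter it was called as closing in the Treg step and opening in the conventional step, as at Il2rb, Riok1 and Nfkb1.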

How the results depend on the processing

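By its own names, the second table's columns for the 4 groups hold none of the 8 libraries used above. Its values therefore describe a comparison of other libraries, not the same libraries processed in another way. With the columns of the second table taken by its own names, 0 peaks were called higher and 0 lower, and the 4 contrasts between pairs of groups gave 3864 (eTreg minus cTreg), 4158 (Teff minus Tnaive), 5 (cTreg minus Tnaive) and 4 (eTreg minus Teff) calls. In that table the difference of changes took the other sign, with no call, at the named peaks of Mynn -0.31, Stxbp4 -0.14, Mad2l1 -0.22, Zfp408 -0.40, Asap2 0.72, Samd3 1.57, Ikzf2 0.0907, Il2 -0.16, Bank1 1.46, Foxp3 0.25, Lef1 -0.13, Nebl -0.0749, Il12rb2 0.0423, Gata3 0.99, Il2rb 0.28, Csf2 0.14, Runx3 0.29, Ikzf4 0.10, Prr5l 0.0318, Rgs1 0.15, Bhlhe40 1.09, Pdcd1 0.0255, Maf 0.14, Il1rl1 0.0119, Satb1 0.31, Prf1 0.11, Tnfsf11 0.20, Tbx21 0.11 and Lrrc32 0.38. The Il1rl1 value belongs to another peak of that gene than the one described above. The peaks of Rgs1, Pdcd1, Maf, Satb1, Prf1 and Tnfsf11 given here are not described above. With 1 of the 8 libraries left out, the Foxp3 value was -2.07 (without Tnaive replicate 2) to 0.0787 (without Tnaive replicate 1).

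Peaks called higher numbered 1862 with a pseudocount of 5, 1925 with the 4 groups fitted alone (42.3% of calls, 2630 lower) and 1516 with the groups titled ATAC-seq alone (39.7%, 2306 lower). Tested against a 1.5-fold change, 123 were higher (16.5% of calls) and 622 lower, and the pair contrasts gave 13436, 14987, 4497 and 4108 calls in the order above. With a pseudocount of 0.5, a score minimum of 10, quantile normalisation or edgeR, 714 to 1107 were higher and 1751 to 2548 lower. Leaving out 1 library gave 414 to 623 higher and 933 to 1712 lower, and pair contrasts of 19369 to 25854, 21367 to 27597, 7582 to 11274 and 6891 to 12403 calls.

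The percentage of peaks called lower that were higher in WT Treg than in WT Tconv was 28.2 with a pseudocount of 5, 30.7 with quantile normalisation and 28.9 to 31.9 with 1 library left out. For peaks lower in Foxp3R397W Treg these were 7.22, 6.83 and 1.83 to 3.50, for higher peaks that were lower in BATFKO Treg 10.5, 14.7 and 1.79 to 4.63, and for higher peaks that were higher with both viruses 31.5, 32.9 and 19.7 to 25.2. With BATF virus, leaving out 1 library gave 5.32 to 9.01. The cause of these shifts was not tested.

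No label says whether the replicate number pairs the libraries. Deviations of same-numbered libraries correlated weakly, at 0.0435 to 0.0779 over peaks, which cannot decide it. With a replicate block 975 peaks were higher and 2082 lower, including 2707 of the 2708 calls. Of 79 called peaks that were named or listed, 51 kept their call in all 8 leave-one-out fits, 46 in the 9 other alternatives of the same table and 46 in both. The test against a 1.5-fold change ended 29 of these calls and edgeR 14. The most were lost without Teff replicate 2 (18), the fewest without cTreg replicate 1 (10). With 2 libraries in a group, differences under 0.77 were not called.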
